A study of Mus musculus with 145 samples.

Results

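The cells annotated as Neural 1 are one of the clusters that the study counted among the failed branches of spermatogonial stem cell (SSC) reprogramming. They were taken as every cell whose deposited cluster annotation reads Neural 1, which gave 271 of 4339 annotated cells of the original condition. They lay in 21 of the 46 libraries of that condition, and 206 of them came from 3 of the 5 libraries of day 27. All groups used here are cells induced from SSCs of C57BL/6[female] X DBA[male] mice with the label treatment none, that is, the condition cultured without the chemicals given to other samples of the series. By the study's methods the SSCs came from early postnatal Oct4-EGFP or EGFP transgenic mice and were kept without passaging on inactivated mouse embryonic fibroblasts with EGF, bFGF, GDNF and ESGRO (LIF), and single cells were picked by mouth pipette from colonies that looked like SSCs or like pluripotent cells. Nothing used here says that libraries of 1 day came from separate cultures, so p-values measure the spread between libraries, which may be technical.

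The SSC is the germ line stem cell of the testis. GDNF from the surrounding cells binds Gfra1 and Ret on its surface and, together with FGF, drives self-renewal through the ERK and AKT pathways; transcription factors such as Etv5, Bcl6b and Lhx1 are its known targets, while Dusp6, Spry4 and their relatives are induced by ERK and dampen it again. Nr2f1, Foxp2 and Msx1, which the study used among its neural markers, are transcription factors of the developing brain, craniofacial tissue and neural crest. Slc2a1 encodes the glucose transporter GLUT1, a target of the hypoxia-inducible factors (HIF).

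Each library held 15975410 to 34609591 unique molecular identifiers (UMIs), each standing for 1 captured mRNA molecule. UMIs were summed per library over the cells of a class, with at least 5 cells a sum, and levels are given as CPM, the count scaled to a common sum of UMIs. Neural 1 cells filled 8 such sums with 240 cells: 1 of day 14 (9 cells), 4 of day 20 (5 to 10 cells) and 3 of day 27 (57 to 75 cells); the other 31 cells lay in 13 libraries. These sums held 975738 to 26473685 UMIs. The comparison classes were SSC1-4 (2248 of 2265 cells, 36 sums), Neural 2 (116 of 117 cells, 2 sums) and Neural 3 (61 cells, 2 sums). The 96 cell barcodes of the plates were reused, each in 33 to 46 libraries, and no cell name occurred in more than 1 library.

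The promoters of 3 genes are shown first because these genes carry the differences described below. Bnip3, a mitochondrial protein of autophagy and cell death, and Ddit4, an inhibitor of mTORC1, are HIF targets that were higher in Neural 1 cells. Mki67, which encodes the proliferation antigen Ki-67, had the largest deficit of the mitosis genes listed. The sequences are RefSeq promoters on GRCm38.p6, 5′ to 3′, all from the minus strand, and end before the gene start that GENCODE gives. GENCODE places Bnip3 at chr7:138890836-138909519, Ddit4 at chr10:59949669-59951834 and Mki67 at chr7:135689784-135716361. Capitals mark ACGTG or its reverse complement CACGT, the core of the HIF response element, in Bnip3 and Ddit4, and CCAAT or its reverse complement ATTGG, the NF-Y box, in Mki67.
Bnip3, chr7:138909520-138909756: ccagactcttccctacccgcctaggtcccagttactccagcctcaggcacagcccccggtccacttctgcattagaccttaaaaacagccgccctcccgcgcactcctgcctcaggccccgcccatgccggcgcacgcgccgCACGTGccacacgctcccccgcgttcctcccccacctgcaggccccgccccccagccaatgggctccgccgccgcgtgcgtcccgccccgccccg
Ddit4, chr10:59951835-59952020: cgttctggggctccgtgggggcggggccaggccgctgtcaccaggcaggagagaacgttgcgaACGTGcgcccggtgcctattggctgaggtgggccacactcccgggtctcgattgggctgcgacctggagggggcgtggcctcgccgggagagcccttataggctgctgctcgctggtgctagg
Mki67, chr7:135716380-135716629: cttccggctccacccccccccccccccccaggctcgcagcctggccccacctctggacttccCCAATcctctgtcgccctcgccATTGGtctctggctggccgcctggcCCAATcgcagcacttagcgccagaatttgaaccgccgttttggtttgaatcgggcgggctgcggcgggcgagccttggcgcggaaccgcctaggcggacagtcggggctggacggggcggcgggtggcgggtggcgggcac

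In the 250 bases before the RefSeq start, ACGTG on either strand was found for 15 of the 20 hypoxia target genes with a promoter in the table and in 16.6% of 32544 promoters. The CACGTG in Bnip3 holds ACGTG on both strands and is also the E-box of other factors. CCAAT on either strand was found for 12 of 13 mitosis genes and in 33.8% of all promoters, and TTTGAA, the cell cycle homology motif, on either strand for 6 of 13 and in 15.8%. A gene can have several promoters in the table. Of all genes, 18.6% had ACGTG, 37.5% CCAAT and 18.1% TTTGAA in at least 1 of them. These matches describe letters and no binding was measured.

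Neural 1 cells were rare until day 23 and then filled 3 libraries. Of the annotated cells they made up 1.05% (day 0), 0 (days 8, 10 and 12), 2.12% (day 14), 0 (day 16), 1.37% (day 18), 4.14% (day 20), 1.2% (day 23) and 43.6% (day 27). Within day 27, replicates 3, 4 and 5 held 77.1%, 59.4% and 81.5%, whereas replicates 1 and 2 held none of 93 and of 96 cells, which allows shares of up to 3.23% and 3.12%. Those 2 libraries instead held 116 of the 117 Neural 2 cells and all 61 Neural 3 cells, so no library held both Neural 1 and Neural 2 or Neural 3 sums. The mean share was 43.6% ± 40.7 (SD, n = 5) on day 27 and 1.19% ± 1.27 (SD, n = 7) on day 23, a difference of 42.4 percentage points with p = 0.0909 in a two-sided exact permutation test over libraries. Against day 20 (4.15% ± 3.31, SD, n = 9) the difference was 39.4 points (exact permutation p = 0.0549). Neither comparison passed; the 3 libraries lay above every library of days 20 and 23 and the other 2 were at 0. Leaving out either of the 2 day 27 libraries at 0 gave 53.3 points against day 23 and 50.3 points against day 20. Leaving out 1 of the other 3 day 27 libraries gave smaller differences than with all libraries. Since cells were picked by hand from colonies, shares describe the cells collected.

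**Figure D1:**
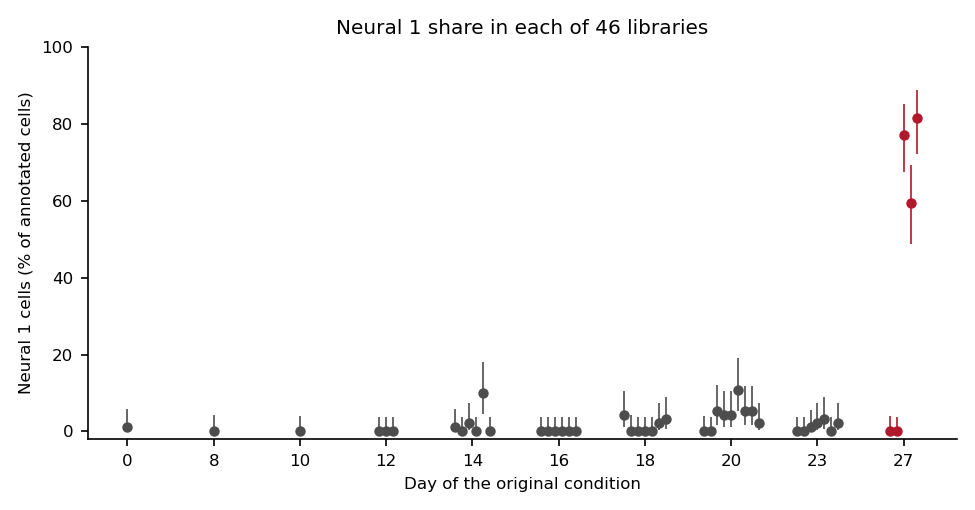
Share of annotated cells that are Neural 1 (percent, vertical axis) in each of the 46 libraries, ordered by day (horizontal axis, not to scale), with exact 95% binomial intervals that cover counting error only. Red points are the 5 libraries of day 27, of which 3 lie between 59.4% and 81.5% and 2 at 0; no library of another day exceeds 10.9%.

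Depth and quality per cell did not differ detectably from SSCs of the same libraries. Over the 8 libraries with both classes, the median UMI count per cell was 199739 to 356774 in Neural 1 and 150246 to 394687 in SSC1-4 (two-sided exact permutation p = 0.711, higher in 3 of 8). The median number of genes per cell was 8097 to 8927 against 7484 to 9307 (exact permutation p = 0.844), and the median percentage of mitochondrial UMIs was 0.749 to 0.956 against 0.744 to 1.07 (exact permutation p = 0.656). The smallest p that 8 pairs allow is 0.00781.

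The neural label was not borne out by the neural markers, and the germ cell markers were at SSC level, so these cells are called here by their annotation only. Nr2f1 (chr13:78188973-78199757) was at 0 CPM in 5 of 8 Neural 1 sums, with a highest value of 11.4 CPM in the day 14 library. In the SSC1-4 sums of the same libraries it ranged from 0 to 11.3 CPM (median 0.267). The 2 Neural 3 sums had 139 and 153 CPM and the 2 Neural 2 sums 9.10 and 9.71, and Neural 1 and Neural 3 did not overlap. No Neural 1 cell of 271 reached the median Nr2f1 level of Neural 3 cells, 119 CPM, the highest being 96.0. Foxp2 (chr6:14901349-15441977) had a lowest, median and highest level of 0, 0.656 and 8.82 CPM in Neural 1 sums, 0, 0.851 and 8.51 in SSC1-4 of the same libraries and 57.8 and 74.5 in Neural 3.

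Msx1 (chr5:37820485-37824583) was lower in Neural 1 than in SSC1-4 in 7 of 8 libraries. Its lowest, median and highest levels were 0, 0.502 and 40.8 CPM in Neural 1 and 2.27, 8.84 and 13.8 in SSC1-4 of the same libraries; the 1 high value was day 20 replicate 7. A UMI of Nr2f1 was found in 8.12% of Neural 1 cells (exact 95% interval 5.16 to 12) and in 4.37% of SSC1-4 cells (3.57 to 5.30), at median depths of 318512 and 248474 UMIs. After thinning every cell to 50000 UMIs, which left out 165 SSC1-4 cells and no Neural 1 cell, the shares were 2.58% (1.04 to 5.25) and 1.90% (1.36 to 2.58), against 21.2% (14.1 to 29.9) in Neural 2 and 79.3% in Neural 3. At this depth Nr2f1 in Neural 1 cells was not distinguishable from its background in SSCs.

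Of the 4 genes given as markers of the cluster, Slc2a1 (chr4:119108711-119137983) alone was at a high level, with 97.3, 222 and 277 CPM as the lowest, median and highest Neural 1 sums. The SSC1-4 sums of the same libraries had 94.7, 211 and 243 CPM, and the 2 ranges overlap almost fully. The level followed the library: both classes were at 94.7 to 129 CPM in the day 14 library and in day 20 replicates 3 and 6, and at 208 to 277 CPM in the other 5. In Neural 3 it was 389 and 431 CPM, in Neural 2 220 and 298.

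**Figure D2:**
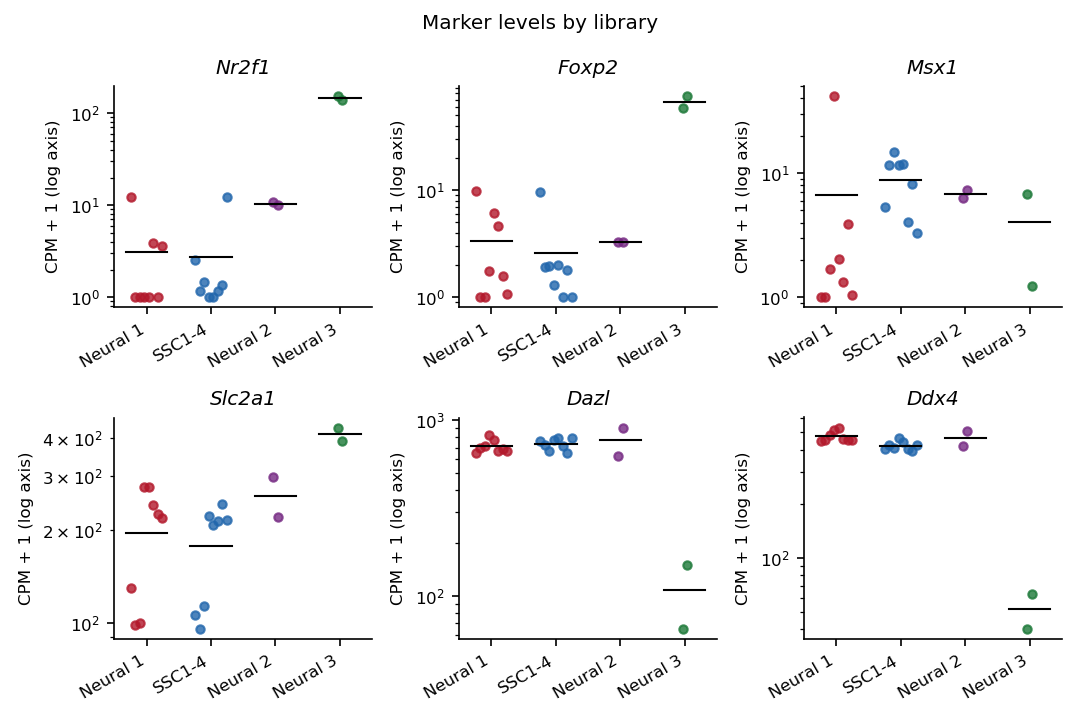
Levels of 6 marker genes (CPM + 1, log axis) in the Neural 1 sums of 8 libraries, the SSC1-4 sums of the same 8 libraries, and the 2 sums each of Neural 2 and Neural 3; each point is a library and the line is the mean. Nr2f1 and Foxp2 lie higher in both Neural 3 sums than in any Neural 1 or SSC1-4 sum shown, Slc2a1 overlaps between Neural 1 and SSC1-4, and Dazl and Ddx4 are at SSC level in Neural 1.

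Dazl and Ddx4, RNA-binding proteins of the germ line, stood at 652, 690 and 823 CPM and at 449, 457 and 531 CPM (lowest, median and highest Neural 1 sum). In SSC1-4 of the same libraries they were at 654, 741 and 790 and at 392, 416 and 464 CPM, and Ddx4 was higher in Neural 1 in 8 of 8 libraries by 0.17 ± 0.07 (SD) on the log2 scale. Neural 3 had 64.3 and 150 CPM of Dazl and 39.3 and 62.2 of Ddx4. The summed level of the 14 pan germ cell genes was 3953 to 4641 CPM in Neural 1, 3547 to 4031 in SSC1-4 of the same libraries and 293 to 594 in Neural 3, with no member at 0 in Neural 1. The 25 neural progenitor and neuron genes summed to 141 to 235 CPM in Neural 1 against 170 to 280 in SSC1-4, with 18 of the 25 under 5 CPM in both.

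Summed markers of other cells that a colony could hold overlapped between Neural 1 and SSC1-4. The 16 fibroblast and feeder genes summed to 112 to 435 CPM in Neural 1 (median 197), 164 to 311 in SSC1-4 of the same libraries (median 203) and 1648 to 1723 in Neural 3, and none was at 0 in every Neural 1 sum. Col3a1, a fibroblast collagen, had a UMI in 38.0% of Neural 1 cells (exact 95% interval 32.2 to 44.1) and 12.6% of SSC1-4 cells of all libraries (11.2 to 14), and after thinning in 9.96% (6.67 to 14.2) and 4.90% (4.02 to 5.92), against 50.4% in Neural 2 and 98.3% in Neural 3. Its level in the sums overlapped, at 0 to 8.54 CPM in Neural 1 and 0 to 3.37 CPM in SSC1-4 of the same libraries, and was 403 and 448 CPM in Neural 3. The part of fibroblast RNA in the differences below was not tested. The 9 Sertoli and Leydig cell genes summed to 18.6 to 53.7 CPM against 19.5 to 41.7 in SSC1-4, with 2 members at 0. The 10 glia and neural crest genes summed to 3.47 to 51.5 CPM against 20.1 to 37.8.

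Across 7917 genes, the pooled profile of Neural 1 was most like that of SSC1 (Pearson r of log2(CPM + 1) = 0.981), followed by SSC4 (0.964), SSC2 (0.962), Meiotic 2 (0.955) and Neural 2 (0.955). Neural 3 came last of 17 clusters, at 0.637. SSC1 was the most similar cluster in each of the 8 libraries taken alone. Genes are not independent replicates, and the profiles share libraries and differ in depth, so these values are a description.

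Against SSC1-4 as a whole, cell division genes and ERK-induced genes were among the genes lower in Neural 1 cells, and other genes were higher. Of 16263 genes tested, 270 were higher and 441 lower (4.37% in all, 1.66% and 2.71%), at a Benjamini-Hochberg adjusted p of 0.05 in edgeR's quasi-likelihood test and a natural-log fold change of 0.5. The clusters had been drawn on the same counts, so these calls describe Neural 1 and are no test of it, and no p is given for them. Within the 8 libraries that hold both classes, with the library as a block, 40 genes were higher and 192 lower of 16223 (1.43% in all, 0.247% and 1.18%). Fold changes are log2, Neural 1 over SSC1-4, ± SE, first over all libraries and then with the block.

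The genes that execute mitosis were the clearest group. Mki67 was at 2.08, 8.14 and 38.0 CPM (lowest, median, highest) in the Neural 1 sums and at 85.7, 107 and 152 CPM in SSC1-4 of the same libraries. The classes did not overlap; day 27 replicate 5 was the highest Neural 1 sum. Its fold change was -2.90 ± 0.30 over all libraries and -3.61 ± 0.31 with the block. Cell by cell, the median level was 3.42 CPM in Neural 1 and 28.9 CPM in SSC1-4, and 26 of 271 Neural 1 cells reached the SSC1-4 median. Of the 16 mitosis genes, 11 were lower and none higher (median -0.99, against -0.04 over all genes tested), and with the block 13 were lower (median -1.19, against -0.11).

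Plk1, the kinase of mitotic entry, was at 11.8, 30.5 and 52.8 CPM against 74.3, 129 and 177, without overlap, and Top2a, the topoisomerase that untangles sister chromatids, at 98.0, 147 and 242 against 275, 380 and 442. Their blocked folds were -2.04 ± 0.20 and -1.30 ± 0.13. Aurka, Ccnb2, Ccna2, Birc5, Tpx2, Cdk1, Kif11 and Aurkb were the other members called in both fits. The mitosis genes together summed to 1374 to 2301 CPM in Neural 1 and 3132 to 4539 in SSC1-4 of the same libraries.

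S phase genes followed. Of 18, 7 were lower and none higher (median -0.56; with the block 7 lower, median -0.63). Rrm2, the ribonucleotide reductase subunit that makes deoxynucleotides, was at 13.3, 22.3 and 59.6 CPM against 74.8, 120 and 134, and Pcna, the replication clamp, at 63.5, 144 and 209 against 218, 252 and 279; neither pair overlapped. Cdkn1a, the p53 target and cell cycle inhibitor p21, was lower as well (-2.04 ± 0.36, blocked -1.90 ± 0.24), and was the 1 called member of the 16 p53 target genes. Of the 15 genes that led the lower side by fold, Mki67 and Plk1 are on the mitosis list and Rrm2 is on the S phase list. The others included Pclaf (listed as X2810417H13Rik, -2.72 ± 0.28), the phosphatase Cdkn3 (-2.42 ± 0.34), the APC/C inhibitor Fbxo5 (-2.19 ± 0.27), the spindle protein Nusap1 (-2.01 ± 0.29), Foxm1, Lrr1, the histone Hist1h2ae, the tubulin Tuba1c, Ccnb3 and the cohesion factor Dscc1. Plaur, the urokinase receptor (-3.56 ± 0.82), and Chga, chromogranin A (-1.64 ± 0.42), complete the set. All 15 were lower in each of the 8 libraries, a condition of the rule that named them.

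Some genes induced by GDNF and ERK were lower in Neural 1. Dusp6, the ERK phosphatase, was at 14, 31 and 81.6 CPM in Neural 1 and 51.3, 132 and 177 in SSC1-4. In the 5 earlier libraries Neural 1 (14 to 36.3) lay below SSC1-4 (120 to 177); in day 27 replicates 3, 4 and 5 the pairs were 15.8 and 51.3, 42.7 and 66, and 81.6 and 81.2. Spry4 was at 1.01, 2.15 and 5.02 CPM against 4.95, 27.4 and 37.9, lower in 8 of 8 libraries (-2.94 ± 0.54, blocked -3.03 ± 0.63). Of the 14 ERK feedback genes, 6 were lower (Fosl1, Spry4, Myc, Dusp6, Etv4, Fos) and none higher, with a median of -1.18; with the block 5 were lower (Spry4, Dusp6, Etv4, Fos, Etv5), with a median of -1.34.

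Among the 22 SSC self-renewal and GDNF response genes, T, Nefm and Lhx1 were lower and none was higher (median -0.35); with the block they were Nefm, Lhx1 and Etv5 (median -0.50). Nefm, the medium neurofilament chain, which is a neuronal structural protein, was at 6.67, 16 and 52.7 CPM in Neural 1 against 20.4, 139 and 203 in SSC1-4, lower in 7 of 8 libraries with day 27 replicate 5 the exception (52.7 against 20.4). Lhx1 was lower in the same 7 of 8 libraries, at 1.39, 11.1 and 25.1 CPM against 5.44, 50.3 and 102. The receptor genes were not called: Ret was at 50.7, 118 and 155 CPM against 108, 117 and 148 (0.15 ± 0.25), Gfra1 at 4.10, 15.4 and 29.9 against 9.26, 35.6 and 57.1, lower in 7 of 8 libraries (-0.75 ± 0.35, blocked -1.03 ± 0.38). Zbtb16, the transcription factor that keeps SSCs undifferentiated, was at 90.8, 122 and 134 CPM against 96.5, 106 and 127.

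**Figure D3:**
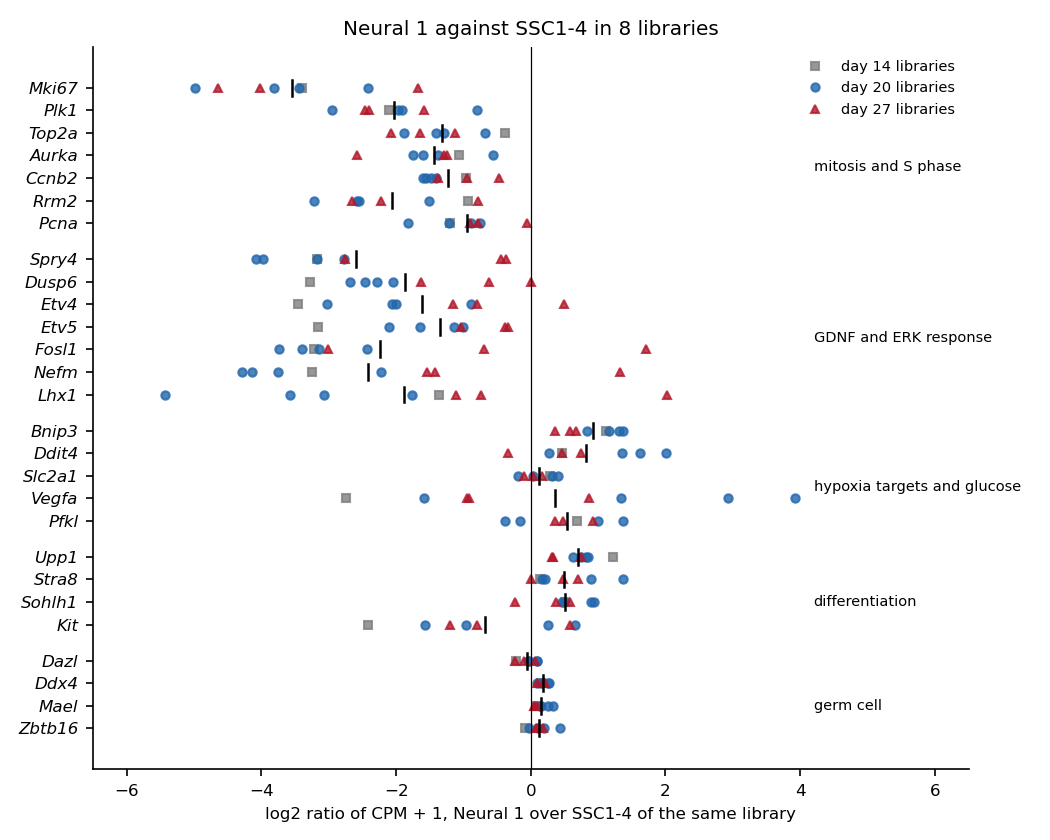
Log2 ratio of CPM + 1 of Neural 1 over SSC1-4 of the same library (horizontal axis) for 27 genes in 5 groups; each point is 1 of 8 libraries, by day, and the black bar is the mean. Mki67, Plk1, Top2a, Aurka, Ccnb2, Rrm2 and Pcna are below 0 in every library, Dusp6 and Nefm are lowest on days 14 and 20, Bnip3 is above 0 in every library, and Slc2a1 and the germ cell genes lie near 0.

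On the higher side, 5 of the 24 hypoxia target genes were higher over all libraries (Vegfa, Pfkfb3, Ddit4, Bnip3 and Slc2a1; median 0.51) and 1, Car9, was lower, at 0 in all 8 Neural 1 sums and at most 2.38 CPM in an SSC sum. Within libraries this shrank to Bnip3 and Ddit4, with Adm, the vasodilator peptide adrenomedullin, lower (median 0.21). Slc2a1 was at 0.80 ± 0.24 over all libraries and 0.13 ± 0.10 with the block, and Vegfa at 1.68 ± 0.53 and 0.22 ± 1.09. Bnip3 was at 100, 255 and 480 CPM in Neural 1 against 62.9, 152 and 192 in SSC1-4 of the same libraries. It was higher in 8 of 8, by 1.25 ± 0.25 over all libraries and 0.94 ± 0.11 with the block. Ddit4 was at 70.4, 208 and 419 CPM against 44.2, 110 and 218, higher in 7 of 8 libraries (1.30 ± 0.26, blocked 0.84 ± 0.17), and its ranges overlap widely. The 24 hypoxia target genes summed to 2298 to 3939 CPM in Neural 1 and 2071 to 3238 in SSC1-4 of the same libraries. In Neural 2 they summed to 3205 to 3384 CPM and in Neural 3 to 4979 to 5273, so high levels were not particular to Neural 1. Of 18 glycolytic enzymes only the phosphofructokinase gene Pfkl was higher over all libraries (1.02 ± 0.30) and none with the block.

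The other genes that led the higher side hold no theme of the lists. X5430402O13Rik, as the files spell it, was higher by 1.72 ± 0.36, the transcription factor Atoh8 by 1.67 ± 0.35, the aminopeptidase Enpep by 1.6 ± 0.33 and the transmembrane channel-like gene Tmc3 by 1.54 ± 0.25. Rhpn1, Bnip3, the phosphatase Dusp26, Atl1, Tmem218, the circadian repressor Nr1d1, Fam205c, Nhlrc1, Gm15446, the lysosomal glucosidase Gaa and Taco1os followed at 1.31 to 0.98. Tmc3 was at 174, 231 and 382 CPM against 70.2, 146 and 172, without overlap. With the block, 9 of these 15 and all 15 of the lower set were still called. In the day 27 libraries alone, none of the 15 higher genes was called, with or without the block, while 12 and 9 of the lower set were. Gaa is not on the list of 14 lysosome and autophagy genes. That list summed to 2856 to 3178 CPM in Neural 1 and 2459 to 2789 in SSC1-4 of the same libraries, without overlap, while its 1 called member was Tfeb, lower.

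Differentiation genes were close to SSC level. Of 11 spermatogonial differentiation genes tested, Upp1, uridine phosphorylase, was higher in both fits (0.86 ± 0.24, blocked 0.72 ± 0.12), at 133, 202 and 234 CPM against 73.0, 111 and 176. Stra8, induced by retinoic acid, was at 78.5, 101 and 214 CPM against 57.9, 78.0 and 180, higher in 8 of 8 libraries but not called (blocked 0.52 ± 0.15), and Kit was at 1.84, 14.5 and 27.4 against 12.9, 15.6 and 39.3. Cartpt, a neuropeptide gene, was the 1 secretory gene called higher with the block (1.2 ± 0.28), at 43.3, 121 and 242 CPM against 1.99, 48.2 and 212. Zic1, a neural progenitor transcription factor, was lower (-1.53 ± 0.32, blocked -1.43 ± 0.41, not called) and was the 1 called of 19 neural progenitor and neuron genes tested. Of the redox genes, Gclc and Txnrd1 were lower, Gclc also with the block (-1.42 ± 0.29). Of 14 pan germ cell, 14 pluripotency, 16 fibroblast, 8 DNA methylation, 7 glia and neural crest, 5 Sertoli and Leydig cell, 13 Wnt and BMP target, 22 integrated stress response and 16 MHC class I and interferon genes tested over all libraries, none was called. With the block, Id3, a BMP target, was lower (-0.81 ± 0.19). In 4 further lists 1 gene each was called lower over all libraries, namely Dmc1 of 14 meiotic genes, Edem1 of 14 unfolded protein response genes, Idi1 of 20 cholesterol synthesis genes and Chga of 11 secretory granule genes.

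The SSC sums mix 4 clusters in unequal parts, so each SSC cluster was also compared by itself, with the library as a block. In the 3 day 27 libraries the 68 SSC cells were 32.4% SSC1, 36.8% SSC2, 23.5% SSC3 and 7.35% SSC4; in the 5 earlier libraries the 336 SSC cells were 18.8%, 19.6%, 36.9% and 24.7%. Against SSC1, 5 genes were higher and 43 lower (0.39% of 12295 tested, 0.0407% and 0.35%). None of 16 mitosis genes (median -0.12), none of 18 S phase genes (-0.33) and none of 12 ERK feedback genes (-0.46) was called, against a median of 0.15 over all genes, while X2810417H13Rik (Pclaf) was (-1.93 ± 0.43). Dppa3, a germ cell and pluripotency gene, was higher by 0.99 ± 0.24. Of 80 ribosomal protein genes 21 were lower (median -0.60), as were 6 of 9 mitochondrially encoded genes (median -0.82); both groups were chosen after their values were seen. SSC1 cells had a median of 149268 UMIs and 1.21% mitochondrial UMIs, and Neural 1 cells 318512 and 0.829%; the part of depth and quality in that result was not tested.

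Against SSC2, 89 were higher and 220 lower (2.22%, 0.64% and 1.58%), with 15 of 16 mitosis genes lower (median -1.71) and 2 of 14 ERK feedback genes, Dusp6 and Fos. Against SSC3, 108 were higher and 363 lower (3.39%, 0.777% and 2.61%), with 14 of 16 mitosis genes (median -1.47), 6 of 14 ERK feedback genes (median -1.73) and Msx1 lower. Against SSC4, 25 were higher and 85 lower (0.811%, 0.184% and 0.627%), and here no mitosis gene was called (median 0.11) while Spry4, Dusp6, Etv4 and Etv5 were lower (median of the 14 ERK feedback genes -2.19), as were T, Nefm, Lhx1, Etv5, Bcl6b and Ccnd2 of the self-renewal list (median -0.75). Stra8 (1.23 ± 0.26), Upp1 (1.14 ± 0.20), Dmrt1 (0.76 ± 0.11) and Dppa3 (1.45 ± 0.23) were higher than in SSC4. Mitosis genes were thus called against SSC2 and SSC3, and ERK feedback genes against SSC2, SSC3 and SSC4; SSC4 sums came from libraries before day 27 only. Bnip3 and Ddit4 were higher than in SSC2, SSC3 and SSC4 and not called against SSC1 (0.52 ± 0.17 and 0.27 ± 0.22). Slc2a1 was called against none of the 4 clusters.

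**Figure D4:**
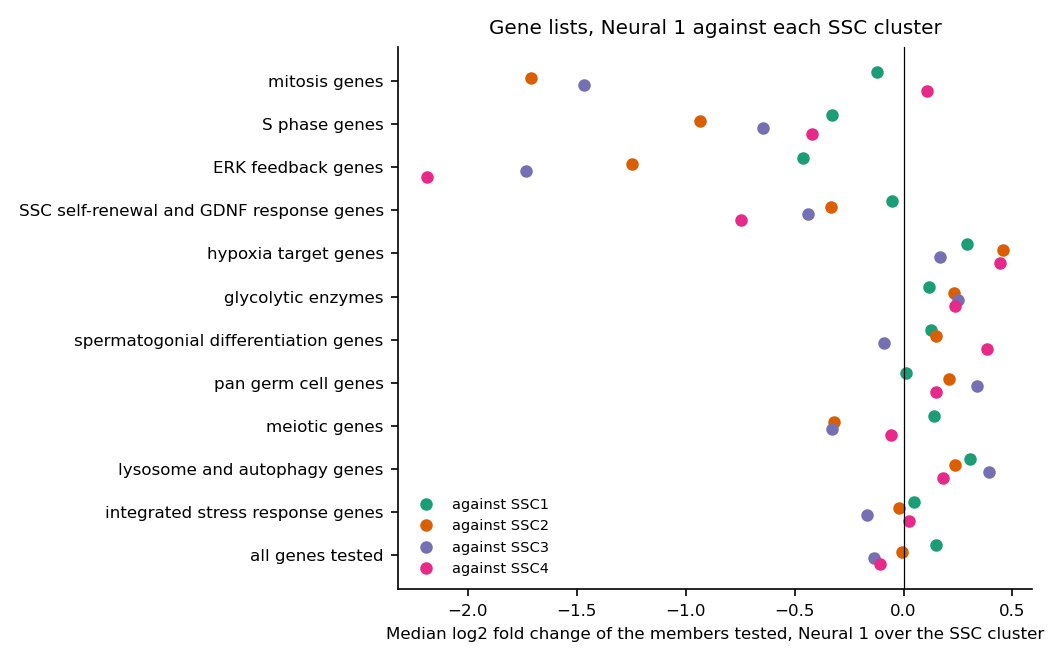
Median log2 fold change of the members tested of 11 gene lists and of all genes tested (horizontal axis), Neural 1 over each of SSC1, SSC2, SSC3 and SSC4 in fits with the library as a block. The mitosis genes lie at -1.71 and -1.47 against SSC2 and SSC3 and near 0 against SSC1 and SSC4; the ERK feedback genes lie furthest below 0 against SSC4.

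The libraries of day 20 and of day 27 share no cells, so the calls made in one can be looked up in the other. The clusters were drawn on the counts of both days together, so agreement between the days describes them and is no independent test. The share of all genes tested that kept their sign was not taken. With the library as a block, 38 genes were higher and 130 lower on day 20 (1.24%, 0.281% and 0.961%), and 17 and 120 on day 27 (0.903%, 0.112% and 0.791%). Of the 130 lower on day 20, 118 were below 0 on day 27 and 48 were called there; of the 120 lower on day 27, 118 were below 0 on day 20 and 48 were called there. Of the higher genes, 33 of 38 and 10 of 17 kept their sign and 2 were called on both days, and no gene was called in opposite directions. Mitosis genes were lower on both days (9 of 16, median -1.08, and 14 of 16, median -1.51), whereas 5 of 14 ERK feedback genes were lower on day 20 (median -1.71) and none on day 27 (median -0.55). Nefm was at -3.61 ± 0.35 on day 20 and -0.69 ± 0.45 on day 27, Lhx1 at -3.49 ± 0.61 and -0.09 ± 0.68, and Bnip3 at 1.24 ± 0.13 and 0.51 ± 0.15.

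The days differ by label and were not used to draw the clusters, so they allow a test. Between Neural 1 of day 27 (3 sums) and of day 20 (4 sums), no gene of 11825 was called by edgeR's quasi-likelihood test (0% called, with 686 at an unadjusted p below 0.05), while DESeq2 called 32 higher and 29 lower. The smallest adjusted p was that of Cartpt (0.0722; 1.88 ± 0.27 higher on day 27, with 205 against 52.5 CPM on average), whose day difference in SSC1-4 was 1.89 ± 0.74. The day 20 sums held 25 cells in all and 975738 to 2910792 UMIs each, against 15791850 to 26473685 on day 27, and the day cannot be told apart from the date of the libraries. In SSC1-4, fitted together with Neural 1 over days 18 to 27, 17 genes were higher and 10 lower on day 27 than on days 18 to 23 (0.152%, 0.0957% and 0.0563%), and these were 70 and 96 without day 27 replicate 4 and 3 and 1 without replicate 5. No member of the 26 lists was called in either class; the median of 14 ERK feedback genes in SSC1-4 was -1.08 and that of 10 in Neural 1 -0.34.

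The test of whether the day difference itself differed between Neural 1 and SSC1-4 called 56 genes higher and 4 lower of 17773 (0.338%, 0.315% and 0.0225%). Of listed genes it held Tyms, thymidylate synthase (1.33 ± 0.26, adjusted p = 0.0150 in edgeR), and Sparc, a matrix glycoprotein (1.82 ± 0.41, adjusted p = 0.0363), both at a higher ratio to SSC1-4 on day 27. Tyms averaged 57.3 CPM in Neural 1 on day 20 and 122 on day 27, against 149 on days 18 to 23 and 120 on day 27 in SSC1-4, and Sparc 28.4 and 82.7 against 76.6 and 61 at the same times. Nefm did not pass (3.07, adjusted p = 0.0881). This fit does not pair the sums of a library. Within the 7 libraries that hold both classes, with the library as a block, 2 genes were called higher and 1 lower of 15961 (0.0188%, 0.0125% and 0.00627%), namely Nefm (2.94 ± 0.58, adjusted p = 0.0464 in edgeR), Rasl11a (1.68 ± 0.29, adjusted p = 0.0106) and Rpp38 (-1.43 ± 0.25, adjusted p = 0.0106); the last 2 are named after their values were seen and were the genes called in both fits. For Nefm, day 27 replicate 5 stood apart, at 52.7 CPM in Neural 1 against 6.67 to 26.6 in the other libraries, and its SSC1-4 sum held 10 cells. The mix of SSC clusters also differs between the days, and its part in this call was not tested. Tyms (1.55 ± 0.33, adjusted p = 0.0771) and Sparc (1.70 ± 0.50, adjusted p = 0.487) did not pass with the block. No ERK feedback gene was called by either fit, so a difference between the days was not shown for that list. In the fit without the block the counts without day 27 replicate 5 were 12 and 0, without replicate 3 they were 26 and 0, and without replicate 4 they were 69 and 2.

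Against Neural 2, which shares the label, few genes differed. Of 15231 genes none was called higher and 3 lower (0.0197%; 744 at an unadjusted p below 0.05): Nefm (-2.83 ± 0.47), the growth factor Mdk (-2.32 ± 0.38) and the mitotic ubiquitin ligase partner Ube2c (-1.45 ± 0.23). Neural 2 had 145 and 150 CPM of Nefm, 95.4 and 178 of Mdk and 252 and 330 of Ube2c, against at most 52.7, 47.2 and 152 in Neural 1. All 16 mitosis genes and 13 of 14 ERK feedback genes were below 0 (medians -0.78 and -1.42), and none was called. Over all 15231 genes, 7645 were below 0 (median -0.0027). Without either Neural 2 library none of the 3 was called (0 higher and 0 lower). DESeq2 called 14 higher and 15 lower, and the day 27 libraries alone gave 27 and 63. With 2 Neural 2 sums, 2-fold changes would mostly be missed: 19% of them were recovered in simulated data and 71% of 4-fold changes.

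Neural 3 was far from Neural 1. Of 14056 genes 1697 were higher and 1866 lower in Neural 1 (25.3%, 12.1% and 13.3%). Of the 14 pan germ cell genes 13 were higher (median 3.33, against 0.06 over all genes), among them Ddx4 (2.99 ± 0.23) and Dazl (2.48 ± 0.28), as were 6 of 10 differentiation genes and 7 of 14 meiotic genes. Nr2f1 (-6.23 ± 0.96), Foxp2 (-5.11 ± 1.03) and Slc2a1 (-1.30 ± 0.31) were lower, with 9 of 15 fibroblast genes (median -3.08), 10 of 18 glycolytic enzymes, 14 of 16 mitosis genes and 13 of 20 cholesterol synthesis genes. Hoxd3, Scara3, Fah, Pknox2, Col9a1, Meox2, Pcdh18 and Hapln3 led the lower side. The homeobox gene Hoxd3 was at 0 in all 8 Neural 1 sums and at 24.1 and 25.5 CPM in Neural 3, and the cartilage collagen Col9a1 at 0 in 6 of 8 sums, at most 0.952 CPM, against 222 and 252. Pxt1, Lgals2, Gm7967, X5430402O13Rik, Gm15398, Zfy2, Gm15559 and Tcea3 led the higher side, with means of 21.6 to 37.6 CPM in Neural 1 and under 1 CPM in Neural 3. The library cannot be told apart from the cluster in either comparison, since Neural 2 and Neural 3 came from the other 2 libraries of day 27.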

How the data were processed

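Single cells were profiled by STRT-seq on plates with UMIs. The deposited UMI counts per gene and cell were made by the authors with UMItools, STAR 2.7.2b (mm10, that is GRCm38) and featureCounts 2.0.0; the authors kept cells by gene number and mitochondrial share and drew and named the clusters with Seurat. The percentage of mitochondrial UMIs per cell was taken as deposited. Counts of the annotated cells were read from the deposited file of each library, and matched the deposited filtered table in every value of the 3 day 27 libraries compared. The members and gene lists were chosen with earlier results of these data known.

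For each class the counts of a library's cells were added up where it had 5 or more such cells, and tested with edgeR 4.0.16 (filterByExpr, TMM, quasi-likelihood test; R 4.3.3) at a Benjamini-Hochberg adjusted p of 0.05 and a natural-log fold of 0.5; DESeq2 1.42.0 gave alternatives. An SE is the fold divided by the square root of F. The scripts were tested on simulated data with 200 changed genes: against SSC1-4, 88% of 2-fold and 100% of 4-fold changes were recovered, and 66% and 96% with the library as a block. Deviations of Neural 1 and SSC1-4 sums of the same library from their class means correlated in each of 8 libraries (0.104 to 0.337 over 7344 genes), so the library was taken to pair them; in 7 of 8 this exceeded the correlation with every other library, and in day 27 replicate 5 it did not (0.104 against 0.127). Shares and depth were tested by exact permutation over libraries (scipy 1.17.1), and intervals are exact binomial and cover counting error only. Named genes were the list members, the genes the study names as markers, and the 15 called genes of largest fold in each direction (8 against Neural 2, Neural 3 and between days) with a mean of at least 20 CPM in the higher class and the same direction in every library that holds both classes. Gene positions are from GENCODE and promoters from RefSeq (GRCm38.p6). Batch and day overlap: of the 8 libraries, the day 14 library alone was in the other labelled batch. Some results on the neural marker list are not reported here.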

Additional observations from a re-analysis of the deposited data

Results flagged for a closer look

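In 9 of 52 groups of 4 to 10 libraries examined, 1 library stood apart from the others. A chance rate of about 1 in 20 groups holds for independent, normally distributed values. Several of these groups share a library and some hold values at 0, so 9 is not read as an excess. In day 27 replicate 5, Neural 1 cells had 81.6 CPM of Dusp6 (others 14 to 42.7), 52.7 of Nefm (others 6.67 to 26.6) and 76.6 of X2810417H13Rik, that is Pclaf (others 9.03 to 29.4). In day 20 replicate 3, of 5 cells, Atl1 was at 62.5 CPM (others 12.5 to 33) and Tmem218 at 138 (others 55.1 to 88.1). In day 20 replicate 7, also of 5 cells, Msx1 was at 40.8 CPM (others 0 to 2.91) and Tmc3 at 382 (others 174 to 266). In the day 14 library Nr2f1 was at 11.4 CPM (others 0 to 2.90). Day 20 replicate 6 held 10.9% Neural 1 cells, the other day 20 libraries 0 to 5.38%.

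The day difference itself differed between Neural 1 and SSC1-4 for 60 genes by the interaction term of edgeR's quasi-likelihood test, 56 of them higher and 4 lower in Neural 1. With the library as a block, 2 were called higher and 1 lower, and 2 genes were called by both fits.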

How the results depend on the processing

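Of the 30 genes named against SSC1-4, whose direction in each of the 8 libraries was fixed by the rule that named them, 9 (day 27 libraries only, none of them higher) to 30 were called under the alternatives. Without 1 library, the Neural 1 share of cells, day 27 against day 23, differed by 32.9 to 53.3 points, and the Neural 1 share of cells, day 27 against day 20, by 29.97 to 50.3 points.

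Against SSC1-4, the counts higher and lower were 412 and 667 by DESeq2, 537 and 424 with no filter on low counts, where higher calls outnumber lower ones as they do not otherwise among these alternatives, 105 and 202 with at least 10 cells a sum, 38 and 64 at adjusted p 0.01 and natural-log fold 1, 121 and 215 for sums per day, and 1 and 63 for day 27 libraries only; without 1 library they were 196 to 334 and 356 to 527. With the library as the block that pairs the sums they were 40 and 192, and, chosen after seeing the data, 38 and 130 for day 20 and 17 and 120 for day 27; the fits against each SSC cluster were added likewise.

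Against Neural 2 the counts were 14 and 15 by DESeq2, 6 lower without a filter, 11 and 20 with at least 10 cells, 0 lower at the stricter threshold or without either Neural 2 library, and 27 and 63 on day 27 only. Against Neural 3 they were 2686 and 2111 by DESeq2, where the balance between higher and lower calls also turned, 799 and 950 at the stricter threshold, 825 to 978 and 1202 to 1208 without 1 Neural 3 library, and 2682 and 2780 on day 27 only. Between days within Neural 1 they were 32 and 29 by DESeq2, 2 and 2 without a filter, 145 and 43 with at least 10 cells (which leaves 1 day 20 library, assumed to vary like the others), and 1 higher without day 20 replicate 7. In SSC1-4 they were 26 and 15 with DESeq2 size factors, 55 and 18 without a filter, and 3 to 70 and 1 to 96 without 1 library; for the interaction, 37 and 5 with DESeq2 size factors, 2 and 1 with the library as a block that pairs the sums (chosen after seeing the data), and 12 to 69 and 0 to 2 without 1 library. The causes were not tested.

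No paired analysis was possible against Neural 2 or Neural 3 because no library held both classes, nor between days because the libraries share only replicate number 3. Sums of 5 to 10 cells limit what days 14 and 20 can show.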
